A study of Mus musculus with 31 samples.

Results

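CD11c-positive and CD11c-negative cells sorted from infarcted mouse hearts were compared across all genes, with 4 libraries of each, 8 of the 31 RNA-seq libraries of the series. The libraries were chosen by their titles, which give the infarct condition (MI, myocardial infarction), a replicate number and the side of the CD11c gate. The animals of every group were Balb/c mice aged 8 to 12 weeks, and the labels name no transgene or drug for any group. In the MI groups the left anterior descending coronary artery had been ligated permanently; the steady-state groups (SS) came from hearts without infarction. After enzymatic digestion of the hearts (Liberase, DNase), 4 populations were separated by fluorescence-activated sorting: the CD11c-positive cells, which the labels call moDC, the CD11c-negative cells, which they call MF, and the conventional dendritic cells cDC1 and cDC2. Every group held 4 libraries except the MI cDC2 group, which held 3. No label states the time after ligation, the sex of the mice, the other antibodies of the sort or whether a library held 1 heart or a pool, so p-values measure the spread between these libraries, which may be technical.

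CD11c is integrin alpha X, a surface protein of dendritic cells and of some macrophages, encoded by Itgax. Monocytes that enter an injured heart can become phagocytic macrophages or take up features of dendritic cells, which load peptides on MHC class II molecules, raise costimulatory proteins and follow the receptor CCR7 to lymph nodes. Resident cardiac macrophages form a separate, long-lived population known for scavenger receptors, complement proteins and the hyaluronan receptor LYVE1.

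Reads assigned to genes numbered 9820904 to 10239197 in the CD11c-positive libraries and 9148624 to 15671670 in the CD11c-negative libraries. CD11c-negative replicate 4, the most deeply sequenced, stood apart on the second principal component of the 8 libraries (69.6, against -38.5 to 14.3 in the other 7), while the first component, 40.6% of the variance, separated the gates. A level is given in CPM, the read count scaled to the library's reads in genes and the library factors of the model, and a difference is a log2 fold change of CD11c-positive over CD11c-negative cells, with its standard error where a ± follows it. A gene is called where the adjusted p of edgeR's quasi-likelihood test was under 0.05 over all 13039 genes tested.

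The gene of the sorting antigen checked the gate. Itgax (chr7:128129547-128150657) stood at 438, 422, 462 and 562 CPM in CD11c-positive replicates 1 to 4 and at 61.9, 40.9, 23.9 and 36.95 CPM in the CD11c-negative replicates. The groups did not overlap (log2 fold change 3.52 ± 0.24), and this difference is the gate itself, not a finding. Among genes of the monocyte and macrophage line, Itgam, the CD11b integrin, was not called (675 ± 26.7 against 805 ± 46.1 CPM, SD, n = 4 each; adjusted p = 0.373), and Fcgr1, which encodes the macrophage Fc receptor CD64, was at 238 ± 20.6 against 322 ± 20.3 CPM (adjusted p = 0.351). The CD11c-positive libraries lay below all CD11c-negative ones for both genes, and a fit of the 8 infarct libraries alone called them lower (adjusted p = 0.00751 to 0.537 and 0.000151 to 0.502 over their alternatives). Adgre1, the gene of F4/80, was lower at 684, 610.3, 780.1 and 717 CPM than in CD11c-negative cells at 1554, 1329.7, 1647 and 1553 CPM, with no overlap (log2 fold change -1.12 ± 0.19, adjusted p = 8.46e-05). Mertk, a receptor for dying cells, stood at 18.7, 14.1, 22.7 and 31.2 CPM against 55.2, 66.9, 52.8 and 54.4 CPM (log2 fold change -1.402 ± 0.46, adjusted p = 0.0479); the libraries did not overlap, but the call was lost without any of 7 of the 8 libraries, all but CD11c-positive replicate 4, with adjusted p of 2.13e-05 to 0.145 over its alternatives. Ccr2, the receptor that draws monocytes from blood, was at 3325, 2744, 2826 and 2413 CPM against 2360.0000, 2168, 2192 and 1775 CPM (log2 fold change 0.41 ± 0.13, adjusted p = 0.0368); every CD11c-positive library was above every CD11c-negative one, yet the call was lost without CD11c-positive replicate 1, 2 or 3 or CD11c-negative replicate 2, 3 or 4 (adjusted p = 8.86e-05 to 0.174 over its alternatives). Ly6c2, a marker of classical monocytes, was low and scattered in both groups (3.88 to 17.3 and 1.19 to 18.9 CPM). The cDC1 receptor gene Xcr1 was nearly absent from both, at 0.997 to 1.65 and 0 to 1.13 CPM against 995 CPM in the MI cDC1 sort.

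In the test across genes, 867 genes were higher in CD11c-positive cells (6.65% of the 13039 tested) and 544 were lower (4.17%). At least a 2-fold change was fitted for 383 of the higher genes (2.94% of all tested) and for 270 of the lower genes (2.07%). The libraries of the gates did not overlap for 1479 genes with CD11c-positive cells above (11.3%) and 1180 with them below (9.05%). Without CD11c-negative replicate 4 the calls numbered 595 higher and 412 lower. Counts of gene lists below are to be read beside the shares of all genes, 6.65% higher and 4.17% lower. A single higher member of 15 (6.67%), as in the macrophage identity, complement and heme lists, is about that share. So are 1 higher member of 20 efferocytosis genes (5%) and 1 of 19 interferon gamma genes (5.26%). Genes of dendritic cell maturation, of the dendritic lineage and of MHC class II were among those higher, and genes of resident macrophages, complement, monocyte-attracting chemokines and eicosanoid enzymes were among those lower. The plot of change against level shows the named genes among all genes.

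**Figure D1:**
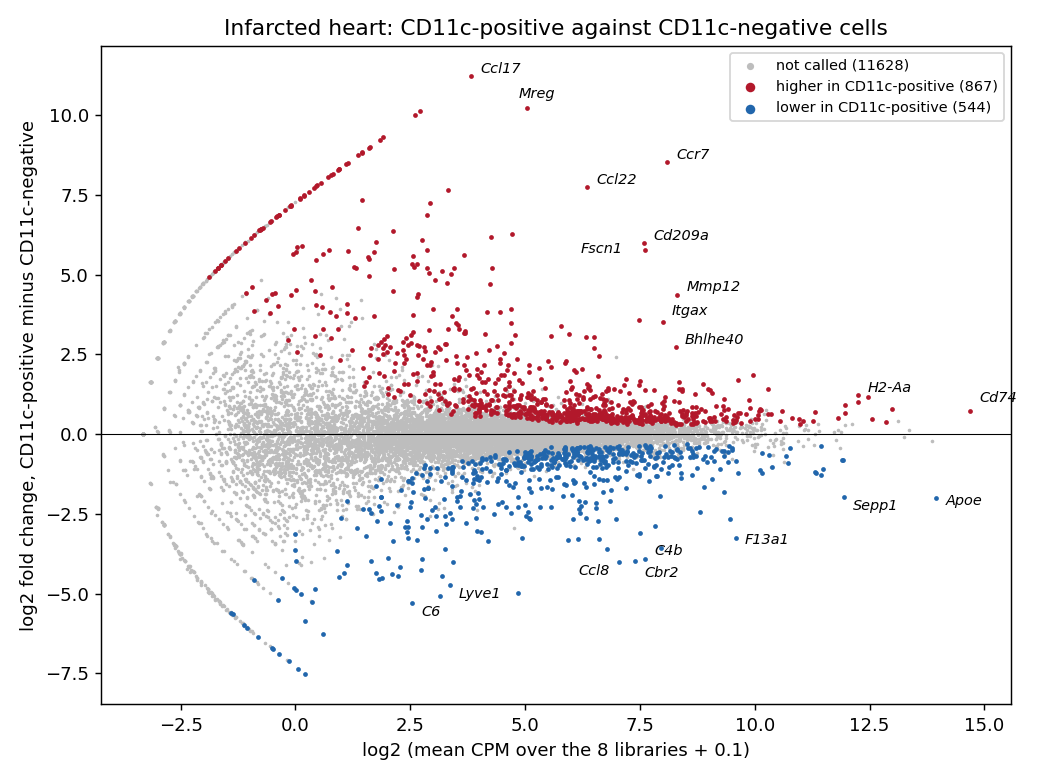
Each point is a gene: its log2 fold change between CD11c-positive and CD11c-negative cells of infarcted hearts against its mean level over the 8 libraries. Red points (867) were called higher and blue points (544) lower; the curved outer rims are genes with 0 reads in 1 of the groups, whose fitted changes depend on the prior count, and Ccl17 and Mreg lie on or near the upper rim.

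The MHC class II genes rose together. Of 14 members of the class II list, all tested, 10 were higher and none lower, with a median log2 fold change of 1.12 beside 0 over all genes tested. Promoters of class II genes are known to share an X-Y module in which the Y box is a CCAAT sequence bound by NF-Y, and the transactivator CIITA docks on the factors assembled there. RefSeq promoters of GRCm38.p6 (250 bases before to 50 after the gene start, from the reference strain, not from Balb/c) were available for 10 of the 14 members, and 4 of members called higher are shown, chosen to include an abundant gene (H2-Aa) and a scarce one (H2-Oa). CCAAT, or ATTGG where it lies on the other strand, is in capitals:
H2-Aa (chr17:34287774-34288073, minus strand): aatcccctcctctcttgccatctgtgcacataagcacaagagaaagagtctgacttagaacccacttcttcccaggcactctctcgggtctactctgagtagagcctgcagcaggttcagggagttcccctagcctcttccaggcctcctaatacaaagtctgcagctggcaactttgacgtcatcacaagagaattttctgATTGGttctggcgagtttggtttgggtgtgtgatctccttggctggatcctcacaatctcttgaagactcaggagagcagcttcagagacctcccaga
H2-Eb1 (chr17:34305617-34305916, plus strand): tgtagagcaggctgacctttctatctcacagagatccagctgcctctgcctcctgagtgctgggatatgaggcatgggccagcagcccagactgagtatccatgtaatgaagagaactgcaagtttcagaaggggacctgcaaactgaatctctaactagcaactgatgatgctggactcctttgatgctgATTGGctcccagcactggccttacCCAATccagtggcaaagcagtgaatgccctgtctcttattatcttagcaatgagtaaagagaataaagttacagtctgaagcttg
H2-DMb2 (chr17:34144999-34145298, plus strand): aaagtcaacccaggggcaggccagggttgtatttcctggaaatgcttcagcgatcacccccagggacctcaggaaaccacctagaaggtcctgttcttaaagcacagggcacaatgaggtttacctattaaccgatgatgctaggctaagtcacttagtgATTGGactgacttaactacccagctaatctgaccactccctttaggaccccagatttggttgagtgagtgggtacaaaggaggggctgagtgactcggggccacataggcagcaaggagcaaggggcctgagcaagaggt
H2-Oa (chr17:34092129-34092428, plus strand): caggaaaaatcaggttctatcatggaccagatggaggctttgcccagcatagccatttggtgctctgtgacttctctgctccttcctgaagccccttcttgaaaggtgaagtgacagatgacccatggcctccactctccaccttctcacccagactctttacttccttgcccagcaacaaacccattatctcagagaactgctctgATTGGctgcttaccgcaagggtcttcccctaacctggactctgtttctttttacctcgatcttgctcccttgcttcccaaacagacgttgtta
All 10 promoters available for the list, 8 of class II chain and editor genes and those of the regulatory factors Rfx5 and Rfxank, held CCAAT on either strand, against 42.6% of the 9947 tested genes with a promoter, 42.6% of the higher and 42.3% of the lower genes. Of these, H2-Eb2, Rfx5 and Rfxank were not called, so the match was not limited to members that rose. In the shown sequences the match began 48 bases before the start of H2-Aa, 59 and 35 before H2-Eb1, 90 before H2-DMb2 and 43 before H2-Oa. In 9 of the 10 a match began 40 to 100 bases before the start, against 20.6% of tested genes. The window was not planned, and its ends lie beside the outermost matches in it, at 41 bases for Rfxank and 100 for H2-Eb2. The comparison with 20.6% is therefore a description and no evidence of enrichment. A match of 5 letters is a description and does not show a bound site.

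Within the class II family, H2-Aa, the alpha chain of the I-A molecule, stood at 6545, 5922, 6342 and 7439 CPM in the CD11c-positive libraries and 3623, 3379, 2222 and 3717 CPM in the CD11c-negative ones. The groups did not overlap (log2 fold change 1.02 ± 0.16, adjusted p = 2.13e-05). The invariant chain Cd74, which guards the empty groove, differed less, at 32794 ± 5585 against 19858 ± 4773 CPM (SD, n = 4 each; log2 fold change 0.72 ± 0.17, adjusted p = 0.00357). The peptide editors H2-DMb1 and H2-DMb2 were at 495 against 193 and 265 against 90.7 mean CPM, and as near-identical neighbours they may have exchanged reads. H2-Oa, the chain of the editor's inhibitor that dendritic cells and B cells carry, showed the widest difference of the family, at 16.8, 12.8, 12.96 and 20.3 CPM against 0.551, 1.53, 0.309 and 0 CPM (log2 fold change 4.84 ± 0.496, adjusted p = 6.43e-08; the fitted fold of 28.6 became 59.4 without CD11c-negative replicate 2). H2-Ob, its partner, was at 30.6 against 10.1 mean CPM. Ciita, the class II transactivator, was at 150.3, 132, 133 and 172 CPM against 82.5, 68.7, 53.3 and 73.3 CPM, again without overlap (log2 fold change 1.08 ± 0.199, adjusted p = 0.000264). The 3 promoter-binding RFX subunits, Rfx5, Rfxap and Rfxank, and H2-Eb2 were the members not called, at log2 fold changes of -0.101, 0.03, 0.09 and 2.45. Class II genes are polymorphic and the reads of Balb/c mice were aligned to a reference of another strain, so their levels may be understated in all groups alike. Even in CD11c-positive cells H2-Aa reached 64.6% and H2-Oa 10.3% of their levels in MI cDC2.

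In the steps that feed these molecules, the list of lysosomal antigen processing genes had 4 higher and 1 lower of 16 tested (median -0.01). Ctss, the protease that trims the invariant chain, was at 4189 ± 316 against 2959.8 ± 194 CPM (SD, n = 4 each; log2 fold change 0.501), and Ifi30, a thiol reductase of the endosome, at 354 ± 38.6 against 170.4 ± 16.2 CPM (1.05). Psap, the saposin precursor, rose by 0.79 and Lgmn, the legumain protease, fell by 0.68, both on the log2 scale. MHC class I was closer between the gates, with 4 higher and none lower of 17 (median 0.12). Those included the peptide transporter Tap1 (log2 fold change 0.58), the immunoproteasome subunit Psmb8 (0.54) and the proteasome activator Psme2 (0.68).

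The genes of migratory maturation, which mark dendritic cells that have been activated and leave for lymph nodes, showed steep rises. Of 19 tested members 13 were higher and 2 lower (median log2 fold change 2.35). Ccr7 (chr11:99144196-99155077), the lymph node homing receptor, stood at 106, 379, 727 and 964 CPM in CD11c-positive cells and at 2.57, 0.611, 0.206 and 2.15 CPM in CD11c-negative cells (log2 fold change 8.52 ± 1.08, adjusted p = 4.33e-06). The groups were far apart although the CD11c-positive libraries themselves spanned 9.10-fold, with replicate 1 the lowest and replicate 4 the highest. Fscn1, the actin bundler fascin of dendritic cell protrusions, followed the same library order at 71.6, 293, 491 and 676 CPM against 5.602, 8.56, 5.98 and 7.83 CPM (log2 fold change 5.77 ± 0.96, adjusted p = 0.000161). The CCR4 ligand Ccl22 was at 46.998, 152, 184 and 265 CPM against 0.827, 0, 0.825 and 1.14 CPM (log2 fold change 7.75 ± 1.15, adjusted p = 3.79e-05).

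Ccl17, the second CCR4 ligand, was at 19.8, 33.4, 29.4 and 29.6 CPM with 1132 reads in all, and had no read in any CD11c-negative library. Against 3 reads over that group it was at least 432-fold higher (adjusted p = 4.41e-08). Mreg, the gene of melanoregulin, had 2652 reads against 2, a ratio of 1516 after scaling (95% exact counting interval 419 to 12528), at 20.4, 41.9, 92.996 and 109 CPM. Traf1, an adaptor of TNF receptors, was at 74.8 ± 34.03 against 15.2 ± 4.76 CPM (log2 fold change 2.29). Relb, the NF-kB subunit of mature dendritic cells, was at 104 ± 33.6 against 48.9 ± 4.95 CPM (log2 fold change 1.09, adjusted p = 0.0131), a call that was lost without CD11c-positive replicate 4 (adjusted p = 0.000341 to 0.0713 over its alternatives). The remaining higher members, named after their values were seen, were Ccl5, Socs2, Tmem123, Cacnb3, Nudt17, Tnfrsf4 and Tnfrsf9. The call of Tmem123 (adjusted p = 0.000478) was lost in the fit of the 8 infarct libraries with the replicate block (adjusted p = 0.05204; 5.54e-06 to 0.052 over its alternatives). Ebi3, a subunit shared by IL-27 and IL-35, went the other way, at 20.7 ± 2.35 against 40.3 ± 6.72 CPM (log2 fold change -0.96), as did Marcks (-0.599).

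Set beside the MI cDC2 sort, maturation genes called higher had a larger median share of the cDC2 level than lineage genes called higher. Mean levels in CD11c-positive cells were 41.9 to 149% of those in MI cDC2 for the 13 higher maturation members, with a median of 90.6%, and 9.16 to 58.3% for the 9 higher members of the shared dendritic cell list, with a median of 24.3%. Traf1 is in both lists. For the 9 higher members of the cDC2 identity list the shares ran from 5.699 to 99.1%, with a median of 42.02%. Ccr7, for example, averaged 544 CPM against 662 CPM in cDC2, and Fscn1 383 against 397 CPM. Flt3 averaged 33.4 CPM against 204 CPM, and Kit 14.2 against 155 CPM. In 8 of the 13 maturation members CD11c-positive replicate 1 was lowest and replicate 4 highest. Their highest library exceeded the lowest by a median of 5.65-fold. The same median was 2.61-fold for the 9 shared dendritic cell genes (3 of them in that order of libraries), 1.69-fold for the 9 cDC2 identity genes and 1.27-fold for the 10 class II genes. These shares and spreads are descriptions made after the values were seen, and no test of the difference between the lists was run. Only members called higher in CD11c-positive cells entered, Itgax (58.3%) among them through the gate. The shares therefore do not describe the whole lists.

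**Figure D2:**
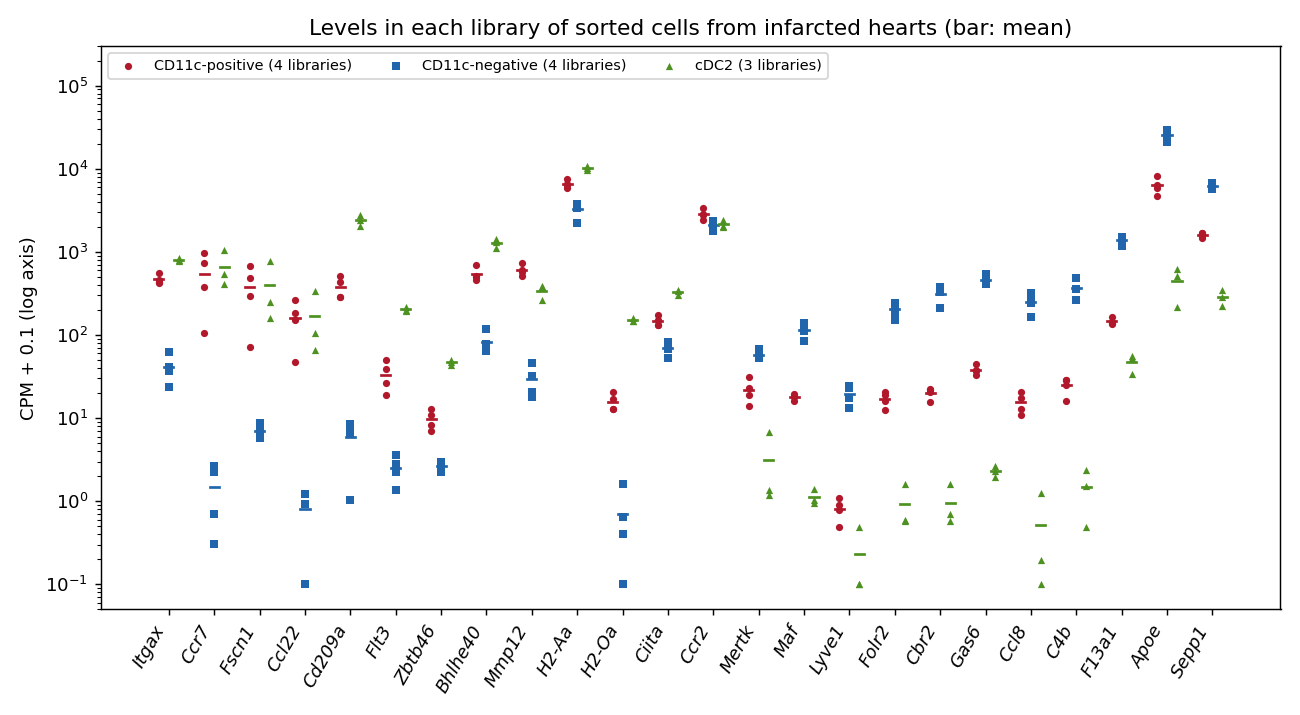
Levels of 24 genes in each MI library (CPM plus 0.1, log axis): circles are CD11c-positive, squares CD11c-negative and triangles cDC2 libraries, and short bars are means. Ccr7, Fscn1 and Ccl22 of CD11c-positive cells lie among the cDC2 points, Cd209a, Flt3 and Zbtb46 lie between cDC2 and CD11c-negative cells, and Lyve1, Folr2, Cbr2 and Ccl8 lie below CD11c-negative cells.

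Genes that define dendritic cells as a lineage rose too. The shared dendritic cell list had 9 of 12 members higher and none lower (median log2 fold change 3.32), with Itgax among the 9 through the gate. Flt3, the receptor of the dendritic cell growth factor, stood at 26.5, 18.9, 38.7 and 49.4 CPM against 3.49, 2.14, 2.68 and 1.26 CPM (log2 fold change 3.83 ± 0.31, adjusted p = 1.15e-09). Zbtb46, a transcription factor of the conventional lineage, was at 6.99, 10.9, 8.07 and 12.8 CPM against 2.48, 2.85, 2.17 and 2.72 CPM (log2 fold change 1.91 ± 0.29, adjusted p = 1.24e-05), below its 46.98 CPM in cDC2 and 133 CPM in cDC1. Neither gene overlapped between the gates. Dpp4, the peptidase CD26, was at 101 ± 14.8 against 9.48 ± 3.75 CPM (log2 fold change 3.402), and Kit, the stem cell factor receptor, at 12.9, 7.92, 13.9 and 22.005 CPM against 0.276, 0.204, 0 and 0 CPM.

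Of the cDC2 identity genes, 9 of 12 were higher and none lower (median 1.67). Cd209a (chr8:3743397-3748984), the mouse DC-SIGN lectin long used to mark monocyte-derived dendritic cells, stood at 509, 284, 289 and 432 CPM against 6.34, 7.44, 0.928 and 8.46 CPM with no overlap (log2 fold change 5.998 ± 0.42, adjusted p = 1.80e-10), and averaged 2393 CPM in MI cDC2. Il1r2, the decoy receptor of interleukin-1, was at 20.6 ± 8.74 against 1.77 ± 1.29 CPM (log2 fold change 3.47), and Tnip3, a brake on NF-kB, at 97.8 ± 17.7 against 20.2 ± 5.44 CPM (2.28). The cDC1 identity list had 5 higher and none lower of 14 (median 1.01): Cadm1, Naaa, Ifi205, Tlr11 and Cd8a. The genes that set cDC1 cells apart most, Xcr1 and Clec9a, were not called and stayed under 2 CPM in all 8 libraries.

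Among 25 lineage transcription factors 5 were higher and 4 lower (median -0.03). Bhlhe40, a repressor active in dendritic cells and inflammatory macrophages, showed the largest rise of these, at 453, 515, 504 and 690.3 CPM against 78.5, 117, 69.9 and 63.8 CPM (log2 fold change 2.72 ± 0.31, adjusted p = 4.41e-07). Zbtb46, Relb, Irf4 (1.09) and Nfil3 (0.79) were the others. Maf, a driver of the mature macrophage programme, was lower at 16.02, 17.9, 18.4 and 19.2 CPM against 121, 111, 140.4 and 83.6 CPM (log2 fold change -2.67 ± 0.32, adjusted p = 5.69e-07). Ahr and Tcf4 also fell, by 0.85 and 0.68 on the log2 scale. The call of Nfil3 was lost without any of 6 of the 8 libraries, all but CD11c-positive replicate 1 and CD11c-negative replicate 2 (adjusted p = 0.00744 to 0.165 over its alternatives). Bhlhe40 and Maf did not overlap between the gates.

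Costimulation and cytokine genes rose in part. Of 17 tested costimulatory and coinhibitory genes 6 were higher and 1 lower (median 0.53). The checkpoint ligand PD-L1, from Cd274, was at 26.6, 37.2, 28.4 and 46.4 CPM against 6.15, 12.4, 10.002 and 9.92 CPM (log2 fold change 1.85 ± 0.32, adjusted p = 0.000104), and Tnfsf9, the ligand of 4-1BB, at 163 ± 20.8 against 60.2 ± 16.9 CPM (1.43). Slamf7, a self-binding receptor of the SLAM family, was at 42.5 ± 22.02 against 11.3 ± 5.05 CPM (1.92). Pdcd1lg2, Cd40 and Tnfsf4 were the other higher members, and 4632428N05Rik, the older symbol of the checkpoint gene Vsir, was the lower one (-0.52). With 1 library left out at a time, Cd40 lost its call without any but CD11c-positive replicate 1 or 2 (adjusted p = 0.00248 to 0.119 over its alternatives), and Pdcd1lg2 lost it without CD11c-negative replicate 3 or 4 (0.00077 to 0.0597).

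The cytokines that steer T cells had 4 higher and 1 lower of 15 (median 0.17). Il12b, the p40 chain of IL-12 and IL-23, was at 4.08, 17.6, 25.9 and 36.8 CPM against 0.0918, 0.5096, 2.17 and 4.55 CPM (log2 fold change 3.44 ± 0.95, adjusted p = 0.0184). Its groups overlapped, and the call was lost without CD11c-positive replicate 4 or CD11c-negative replicate 1 or 2 (adjusted p = 2.68e-07 to 0.0583 over its alternatives), while without CD11c-negative replicate 4 the fold rose from 10.8 to 22.99. Aldh1a2, which makes retinoic acid, was at 5.05, 13.7, 22.2 and 26.5 CPM against 1.47, 2.24, 1.65 and 3.85 CPM (log2 fold change 2.82 ± 0.51, adjusted p = 0.000292). Il1b, the inflammasome cytokine, was at 1399 ± 209 against 835 ± 156 CPM (0.74). Il6 was called at 4.59 against 1.29 mean CPM (adjusted p = 0.0273) and lost the call without CD11c-positive replicate 1 or 3 or any 1 of the CD11c-negative libraries (0.00459 to 0.0815 over its alternatives).

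Further genes with the largest rises have no list in common. Adam23, a catalytically inactive surface protein of the ADAM family, had 7.87, 7.33, 12.9 and 23.9 CPM and no read in CD11c-negative cells, at least 199-fold higher, and Lad1, an anchoring filament protein, had 2.72, 11.9, 14.2 and 19.004 CPM and likewise no read there, at least 183-fold higher. The collagen receptor Ddr1 was at 19.9, 15.5, 18.7 and 25.01 CPM, with reads in CD11c-negative replicate 1 alone of its group. Dcstamp, a fusion protein of osteoclasts and dendritic cells, averaged 37.4 CPM against 0.554 CPM, and P2ry10, a lysophospholipid receptor, 51.8 against 0.583 CPM. Ccr6, the receptor of CCL20, averaged 13.03 against 0.197 CPM, Cd226, an adhesion receptor of lymphocytes and dendritic cells, 14.9 against 0.0972 CPM, and the lectin receptor Klrb1b 14.004 against 0.268 CPM. Fitted folds of genes so close to 0 in CD11c-negative cells moved with single libraries: that of Ddr1 from 201 to 1705 without CD11c-negative replicate 1, of Dcstamp from 73.04 to 206 and of Ccr6 from 68.2 to 104 without replicate 2, of Klrb1b from 54.7 to 92.3 without replicate 2, of P2ry10 from 77.9 to 118 without replicate 4, and of Kit from 118 to 207 without replicate 1, all CD11c-negative. None of these genes overlapped between the gates, but the rule that named them required this, so it adds no evidence.

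The macrophage elastase Mmp12 (chr9:7344381-7369499) was the most abundant gene of this size of change, at 737, 598, 508 and 576 CPM against 45.8, 32.002, 18.05 and 20.7 CPM (log2 fold change 4.38 ± 0.46, adjusted p = 1.83e-07). In the repair and matrix list 7 of 26 members were higher and 4 lower (median -0.04). The lectin Lgals3 rose to 1559 ± 142 from 432 ± 89.3 CPM (1.85) and Tgfbi, a matrix protein induced by TGF-beta, to 1407 ± 81.99 from 813 ± 126 CPM (0.79), while Igf1, the growth factor, was at 29.2 ± 6.42 against 128 ± 26.5 CPM (-2.13). Of the genes of lipid-associated macrophages 5 of 19 were higher and 2 lower (median 0.49). Cd9, a tetraspanin, rose by 1.04 on the log2 scale; the lower members were both part of cholesterol export. Apoe, the lipoprotein, stood at 5877, 4743, 6373 and 8276 CPM against 27501, 20980.3, 23849.9 and 29524 CPM (log2 fold change -2.01 ± 0.27, adjusted p = 6.72e-06), and the transporter Abca1 at 189 ± 25.7 against 487 ± 44.2 CPM (-1.37).

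Among genes of cholesterol synthesis the called members all rose, with 11 of 22 genes higher and none lower (median 0.46). Among them Fdps, the farnesyl diphosphate synthase, was at 50.6 ± 10.4 against 26.02 ± 5.41 CPM (0.96). Of 25 glycolysis and hypoxia genes 9 were higher and none lower (median 0.42). Ldha, the lactate dehydrogenase chain, was at 1213 ± 164 against 683 ± 118 CPM (0.83), and the platelet-type phosphofructokinase Pfkp at 161 ± 12.1 against 61.8 ± 7.95 CPM (1.38). Of 32 oxidative phosphorylation genes 7 were higher and none lower (median 0.398), among them Cox5a (0.53) and Atp5c1 (0.5004). Of 32 cell cycle genes 8 were higher and none lower (median 0.499), with Tyms, the thymidylate synthase, at 23.2 ± 2.54 against 12.3 ± 2.78 CPM and Pcna, the replication clamp, at 126 ± 8.99 against 90.7 ± 12.5 CPM.

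**Figure D3:**
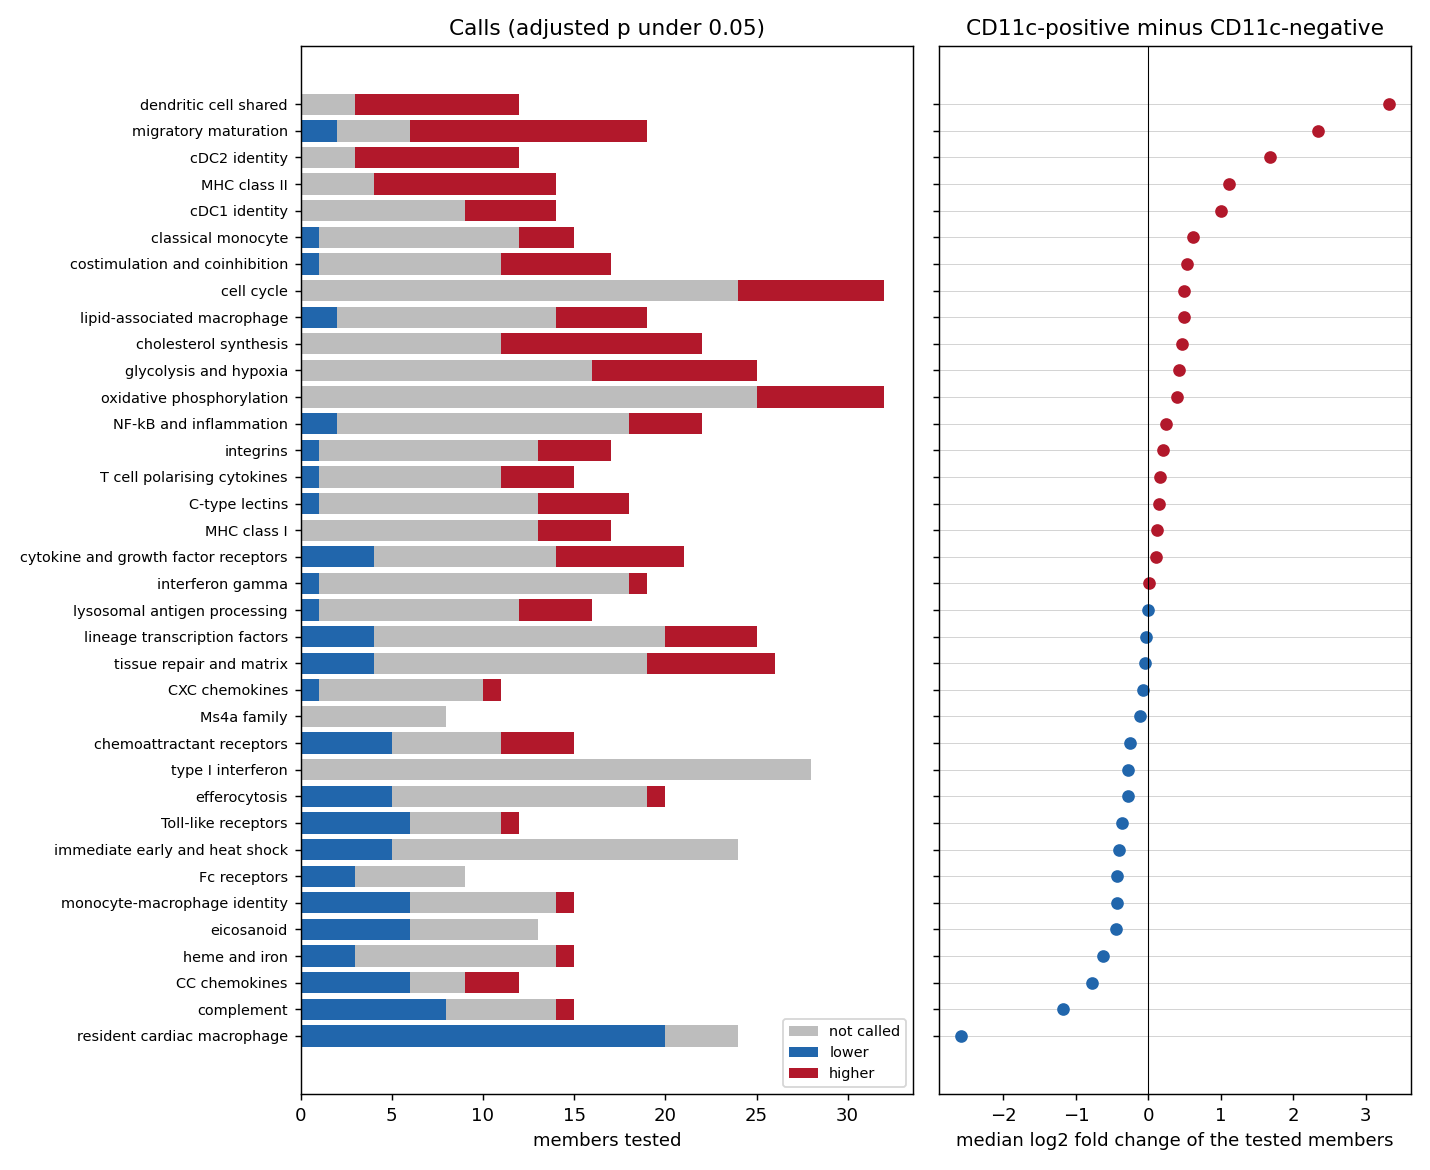
Left, members tested in each of the 36 gene lists, split into lower, not called and higher in CD11c-positive cells of infarcted hearts; right, the median log2 fold change of each list. The shared dendritic cell and migratory maturation lists lie at the top (medians 3.32 and 2.35) and the resident macrophage list at the bottom (-2.59).

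The lower side was led by the resident cardiac macrophage genes, of which 20 of 24 were lower and none higher (median log2 fold change -2.59). Lyve1 (chr7:110850607-110863239), the hyaluronan receptor, stood at 0.6797, 0.396, 0.997 and 0.8002 CPM against 13.3, 23.1, 24.3 and 17.4 CPM (log2 fold change -4.74 ± 0.58, adjusted p = 7.93e-07). Folr2, folate receptor beta, was at 12.4, 15.8, 18.6 and 20.6 CPM against 153, 245, 185 and 232 CPM (log2 fold change -3.59 ± 0.298, adjusted p = 1.31e-09), and Cbr2, a carbonyl reductase, at 22.2, 21.8, 15.6 and 20.3 CPM against 210.4, 345, 328 and 377 CPM (log2 fold change -3.98 ± 0.33, adjusted p = 2.69e-09). No CD11c-positive library reached a CD11c-negative one for these 3 genes, which the rule that named the largest changes required. Gas6, the bridge between dying cells and MERTK, was at 36.7, 38.3, 33.2 and 44.6 CPM against 427, 411, 457 and 537 CPM (log2 fold change -3.58 ± 0.23, adjusted p = 2.57e-11). Sepp1, the plasma selenoprotein, was among the most abundant, at 1668, 1474, 1709.9 and 1535 CPM against 5950.3, 6527, 6814 and 5783 CPM (log2 fold change -1.97 ± 0.16, adjusted p = 3.58e-10). The scavenger receptors Cd163 (13.1 against 129 mean CPM), Stab1 (190.3 against 1209.9) and Mrc1 (282 against 997) fell as well. Timd4, the phosphatidylserine receptor of the oldest resident cells, was not called, at 10.002, 22.3, 24.02 and 25.5 CPM against 9.92, 19.9, 10.3 and 11.7 CPM (log2 fold change 0.66 ± 0.33, adjusted p = 0.214), and its groups overlapped. In these bulk libraries fewer cells of a type and less RNA per cell cannot be told apart.

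The complement list had 8 of 15 members lower and 1 higher (median -1.18). C4b, the classical pathway component, was at 25.1, 16.04, 28.9 and 28.5 CPM against 264, 356, 359 and 489.6 CPM (log2 fold change -3.898 ± 0.4003, adjusted p = 2.56e-07); its near-identical neighbour C4a, at 1.24 against 20.2 mean CPM, may share reads with it. C6, part of the membrane attack complex, was at 0, 0.792, 0 and 0.3001 CPM against 8.27, 9.68, 6.599 and 19.8 CPM (adjusted p = 0.000708), and its fitted fold of 39.1 became 100.4 without CD11c-positive replicate 2. The C1q chains C1qa, C1qb and C1qc, named after their values were seen, fell by 1.27, 1.18 and 1.21 on the log2 scale. C5ar1, the C5a receptor, was at 229 ± 37.8 against 726 ± 65.9 CPM (-1.67), and was not called by DESeq2 (adjusted p = 6.33e-12 to 0.0596 over its alternatives). The one higher member was Itgb2, the shared beta chain of CD11b and CD11c, at 825 ± 33.9 against 449 ± 50.99 CPM (0.88).

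Chemokine genes moved in both directions. Of 12 CC chemokines 3 were higher and 6 lower (median -0.78). The higher genes were Ccl17, Ccl22 and Ccl5, and the lower genes were Ccl2, Ccl3, Ccl4, Ccl7, Ccl8 and Ccl12, of which Ccl2, Ccl7, Ccl8 and Ccl12 are known to attract monocytes. Ccl8 stood at 10.9, 20.4, 17.4 and 12.8 CPM against 165, 319, 269.5 and 245 CPM (log2 fold change -4.02 ± 0.57, adjusted p = 1.42e-05). Ccl12 was at 18.3 ± 4.802 against 177 ± 33.97 CPM (-3.28) and Ccl7 at 22.4 ± 4.27 against 139 ± 33.9 CPM (-2.63), neither with overlap. The call of Ccl3 (adjusted p = 0.019) was lost without CD11c-positive replicate 2 or CD11c-negative replicate 3 or 4 (6.80e-06 to 0.0824 over its alternatives), and that of Ccl4 without any library but CD11c-negative replicate 1 or 2 (1.57e-06 to 0.135). Among 15 chemoattractant receptors 4 were higher and 5 lower: Ltb4r1, the high-affinity leukotriene B4 receptor, rose to 96.4 ± 10.3 from 20.7 ± 10.8 CPM (2.22) beside Ccr7, Ccr6 and Ccr2, and Cx3cr1, the fractalkine receptor, fell to 553 ± 39.9 from 999 ± 99.05 CPM (-0.85) with C5ar1, Fpr1, Fpr2 and S1pr1. The formyl peptide receptor Fpr1 lost its call without CD11c-positive replicate 1 or 4 or CD11c-negative replicate 2 (adjusted p = 6.31e-06 to 0.0586 over its alternatives), Fpr2 without any library but CD11c-positive replicate 2 or CD11c-negative replicate 4 (0.000196 to 0.0831), and Ccr2 without 6 of the 8.

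The efferocytosis list had 5 of 20 members lower and 1 higher (median -0.28). The lower members were Mertk, Gas6, Pros1, Stab1 and Abca1, and the higher one was Havcr1 (TIM-1), with 102 reads over the CD11c-positive libraries and none over the CD11c-negative ones, at least 38.9-fold higher. The calls of Mertk and Pros1 were fragile: that of Pros1 was lost without CD11c-positive replicate 2 or CD11c-negative replicate 1 or 3 (adjusted p = 0.00208 to 0.0936 over its alternatives), and that of Mertk without 7 of the 8 libraries. Of 15 monocyte and macrophage identity genes 6 were lower and 1 higher (median -0.44); Csf1r, the receptor of the macrophage growth factor, was at 2654, 2591, 2939 and 3214 CPM against 4933, 4232, 4750.03 and 5894 CPM (log2 fold change -0.797 ± 0.17, adjusted p = 0.0011), without overlap. Of 15 classical monocyte genes 3 were higher and 1 lower (median 0.62): the calcium-binding proteins S100a4 (110.3 against 28.3 mean CPM) and S100a6 (212 against 73.03) and Ccr2 were higher, and the clotting factor XIII subunit F13a1 was lower at 144, 166, 134 and 141 CPM against 1180.3, 1516, 1443 and 1417 CPM (log2 fold change -3.25 ± 0.27, adjusted p = 2.69e-09).

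Sensing and lipid-mediator genes were mostly lower where they were called. Of 12 Toll-like receptors 6 were lower and 1 higher (median -0.37), with Tlr13, a sensor of bacterial ribosomal RNA, at 292 ± 39.3 against 479 ± 30.8 CPM (-0.71) and Tlr8 at 71.2 ± 9.89 against 114 ± 15.7 CPM (-0.68). The higher one was Tlr11 (8.54 against 1.41 mean CPM). Of 9 Fc receptors 3 were lower and none higher: the inhibitory Fcgr2b (-0.496), the neonatal receptor Fcgrt (-0.67) and Fcrls (-2.43). The eicosanoid genes had 6 of 13 lower and none higher (median -0.45). Ptgs1, the constitutive cyclooxygenase, was at 51.7, 44.96, 37.7 and 47.4 CPM against 183, 164, 135 and 161 CPM (log2 fold change -1.82 ± 0.32, adjusted p = 0.000232), and its groups did not overlap. Alox5, the 5-lipoxygenase, was at 40.5 ± 5.59 against 116 ± 17.6 CPM (-1.52), the leukotriene C4 synthase Ltc4s at 3.27 against 33.3 mean CPM, and Hpgd, which degrades prostaglandins, at 25.4 ± 3.76 against 168 ± 43.1 CPM (-2.72).

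Among growth factor and cytokine receptors 7 of 21 were higher and 4 lower (median 0.10004). Flt3, Kit, Il1r2, Il7r and the GM-CSF receptor chains Csf2ra (0.67) and Csf2rb (0.95), with Il2rg, were higher; Csf1r, Il4ra (not called without CD11c-negative replicate 2; adjusted p = 3.58e-05 to 0.0585 over its alternatives), Il10rb and the TGF-beta receptor Tgfbr2 (383 ± 28.2 against 822 ± 88.97 CPM, -1.099) were lower. Of 17 integrins 4 were higher and 1 lower: beside Itgax and Itgb2, the gut-homing beta chain Itgb7 was at 181, 155, 121 and 187 CPM against 16.2, 30.1, 7.53 and 23.6 CPM (log2 fold change 3.05 ± 0.33, adjusted p = 2.67e-07), and Itga9 was at 46.02 ± 8.33 against 135 ± 11.7 CPM (-1.55). Of 18 C-type lectins 5 were higher and 1, Mrc1, lower. Clec4b1 rose by 1.25 and Mgl2 by 1.63 on the log2 scale.

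None of 28 type I interferon genes was called in either direction by edgeR over all libraries (median -0.28). Of these 7 were lower at an unadjusted p under 0.05, and DESeq2 called 1 lower and a fit of the 8 infarct libraries alone 6. Of 19 interferon gamma genes 1 was higher (Ciita) and 1 lower (Iigp1, a GTPase, 5.44 against 24.9 mean CPM), and of 22 NF-kB and inflammation genes 4 were higher and 2 lower (18.2% and 9.09%, beside 6.65% and 4.17% of all genes tested). No member of the Ms4a family was called by edgeR among 8 tested. Of these 2 were lower at an unadjusted p under 0.05 and DESeq2 called 1 lower. For the other lists with no member called in a direction, no member had an unadjusted p under 0.05 that way or was called so by DESeq2, except 1 higher Fc receptor and 1 higher eicosanoid gene by both measures. Of 24 immediate early and heat shock genes 5 were lower and none higher (median -0.405): Jun, at 845, 539, 615 and 726 CPM against 1634, 1384, 1332 and 1996 CPM (log2 fold change -1.22 ± 0.24, adjusted p = 0.000777), Klf2 (-1.21), Ier3 (-1.21), Ier5 (-0.62) and Ier2 (-0.67). Ier2 lost its call without CD11c-positive replicate 2 or 3 or CD11c-negative replicate 1 or 4 (adjusted p = 1.40e-05 to 0.143 over its alternatives). Such genes are known to rise during tissue digestion, and the part of handling in this difference was not tested. In the heme and iron list 3 of 15 were lower and 1 higher, with the iron carrier Trf at 1177 ± 93.03 against 2226 ± 111 CPM (-0.92).

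The same contrast in steady-state hearts, from 8 other libraries, called 1116 genes higher (8.56%) and 566 lower (4.34%), or 12.9% of those tested. Of the genes called after infarction, 525 were higher in both conditions and 289 lower in both, and 2 changed sides. A test of the difference between the contrasts passed for 38 genes (0.291%), 9 (0.069%) with a more positive and 29 (0.222%) with a more negative CD11c difference after infarction, and 935 had an unadjusted p under 0.05. That count was 21 to 24 without infarct CD11c-positive replicate 1, 2 or 3 or CD11c-negative replicate 2, and 118 by DESeq2. Genes outside these 38 are not shown to act alike in the conditions. Between the gates, Fscn1, for example, differed by 5.77 ± 0.96 in infarcted hearts and by 2.14 ± 0.81 at steady state (not called). Ccr7 differed by 8.52 ± 1.08 and 6.42 ± 0.99, and Ccl8 by -4.02 ± 0.57 and -0.96 ± 0.51, all log2 fold changes. Adjusted p of the differences between the conditions was 0.277, 0.87 and 0.0793. Resident macrophage genes stood lower in both contrasts, such as Lyve1 with log2 fold changes of -4.74 ± 0.58 and -4.73 ± 0.53 and Folr2 by -3.59 ± 0.298 and -3.42 ± 0.29.

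Genes whose CD11c difference did change were led by Kcnn4, Ccr2 and St3gal5. Kcnn4, a calcium-gated potassium channel, stood after infarction at 126, 113, 121 and 127 CPM against 42.3, 40.8, 31.6 and 50.3 CPM, and at steady state at 46.1, 35.4, 81.1 and 62.8 CPM against 1.53, 0.588, 3.56 and 1.55 CPM. In CD11c-negative cells it exceeded 30 CPM after infarction and stayed under 4 CPM at steady state (difference of the log2 fold changes -3.39 ± 0.39, adjusted p = 9.13e-06). Ccr2 followed the same form, with 332, 423, 445 and 481 CPM in steady-state CD11c-negative cells and 1509, 1344, 1830.3 and 1482 CPM in steady-state CD11c-positive cells (difference -1.46 ± 0.19, adjusted p = 3.69e-05). Vegfa, the angiogenic factor, was at 37.8, 104, 92.5 and 81.6 CPM against 40.04, 99.2, 51.9 and 45.5 CPM after infarction and at 41.99, 59.5, 97.9 and 66.6 CPM against 2.19, 6.57, 3.47 and 8.64 CPM at steady state (difference -3.25 ± 0.63, adjusted p = 0.0148). Its infarct libraries overlapped and its steady-state libraries did not. The difference did not pass with only steady-state libraries 1 and 4 or only 2 and 3 (adjusted p = 1.57e-05 to 0.39 over its alternatives). Itgax itself had a larger log2 fold change at steady state, 5.49 against 3.52 after infarction (adjusted p of the difference = 0.00309, 7.95e-07 to 0.0559 over its alternatives). It stood at 11.3, 5.195, 5.296 and 8.15 CPM in the steady-state CD11c-negative cells.

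In the other direction, St3gal5, the GM3 ganglioside synthase, differed by 2.77 ± 0.23 after infarction and 0.87 ± 0.201 at steady state (adjusted p = 0.00147), and Chn2, a Rac-inactivating chimaerin, by 2.54 ± 0.23 and 1.04 ± 0.21 (adjusted p = 0.0168, 0.000497 to 0.278 over its alternatives). The differences of Chn2 and Itgax did not pass in a fit of the 16 CD11c libraries alone, nor that of Chn2 with only steady-state libraries 2 and 3. Timd4 was at 17.03, 23.4, 26.5 and 11.5 CPM against 55.5, 84.99, 74.05 and 69.1 CPM at steady state, where CD11c-negative cells were higher, and the groups overlapped after infarction (difference 2.51 ± 0.46, adjusted p = 0.00783, 7.48e-06 to 0.0873 over its alternatives). Adamdec1, a metalloprotease of dendritic cells and macrophages, had 2.72, 4.16, 4.58 and 5.501 CPM and no read in CD11c-negative cells after infarction, and 20.4, 24.9, 11.1 and 11.8 CPM against 6.86, 0.882, 2.31 and 5.15 CPM at steady state (adjusted p = 0.0101, 0.000773 to 0.0873 over its alternatives). With only steady-state libraries 2 and 3 the differences of Timd4 and Adamdec1 did not pass. Slc15a2, a peptide transporter, was lower in CD11c-positive than CD11c-negative cells by 4.99 in infarcted hearts and by 2.53 at steady state (adjusted p = 0.0191). The difference between the conditions did not pass without CD11c-positive replicate 1, 2 or 3 or CD11c-negative replicate 2 of the infarct groups. Nor did it pass with only steady-state libraries 2 and 3 (adjusted p = 0.000342 to 0.146 over its alternatives).

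The smooth muscle genes Acta2, Myl9 and Tagln also passed (adjusted p = 0.0496, 0.0496 and 0.0457). Acta2 stood at 54.7, 161, 22.4 and 42.8 CPM against 3.72, 2.06, 6.55 and 17.2 CPM at steady state and at 0.583, 0.9903, 1.096 and 2.601 CPM against 2.85, 21.4, 2.27 and 2.78 CPM after infarction. Summed markers of mural cells, to which Acta2 and Tagln belong, ran from 48.8 to 383 CPM in the steady-state CD11c-positive libraries, against 20.7 to 33.4 CPM in the infarct CD11c-positive ones, and their part in these differences was not tested. Leaving out steady-state CD11c-positive replicate 2, the highest library, ended the calls of Acta2, Myl9 and Tagln, as did leaving out most other libraries 1 at a time (adjusted p = 0.00611 to 0.493, 0.00126 to 0.437 and 0.00095 to 0.42 over their alternatives).

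**Figure D4:**
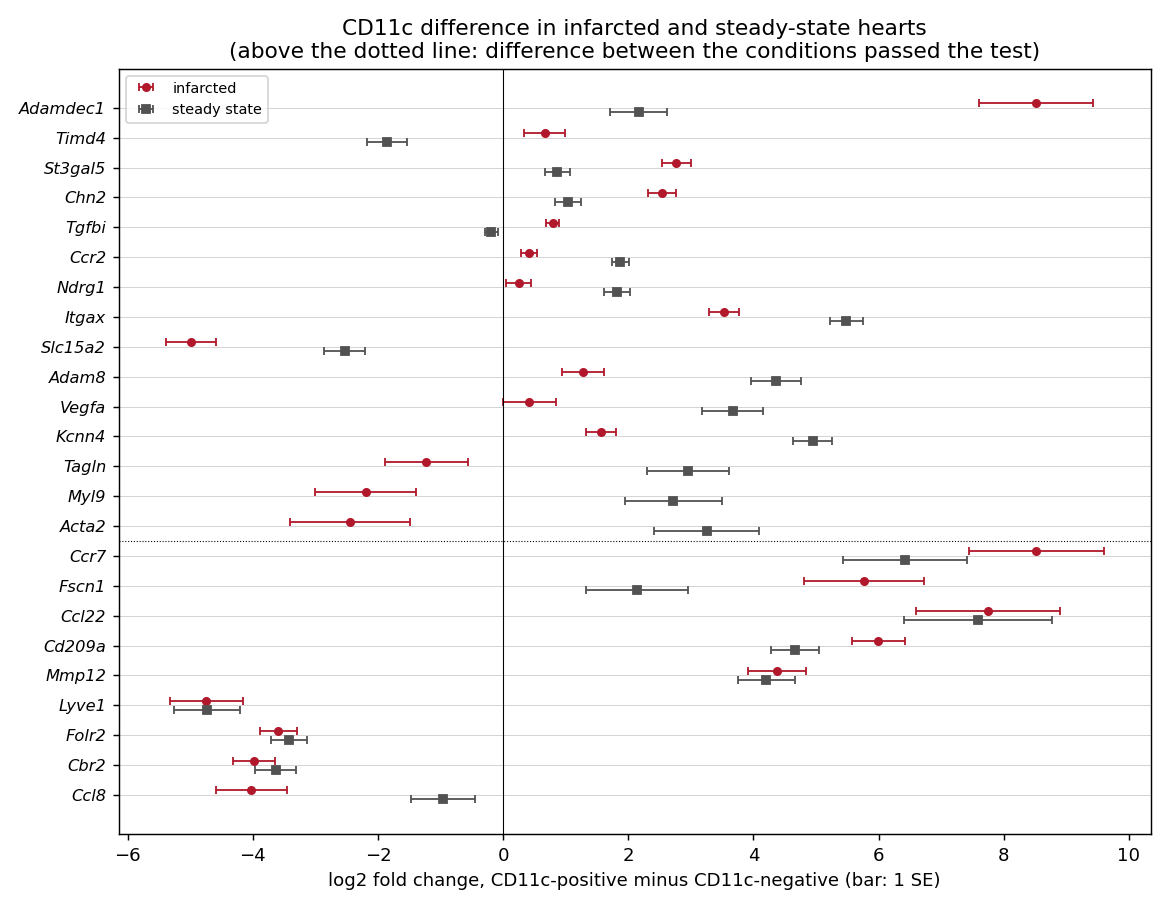
Log2 fold changes of CD11c-positive over CD11c-negative cells (bars, 1 SE) in infarcted (circles) and steady-state hearts (squares). Above the dotted line are 15 genes whose difference between the conditions passed the test; below it are 9 leading genes of the infarct contrast, such as Ccr7 (8.52 and 6.42) and Lyve1 (-4.74 and -4.73), that did not.

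Markers of cell types outside the gates were summed in each library and compared by an exact two-sided permutation test over 4 against 4 libraries, whose smallest p is 0.0286, adjusted over 14 lists. Same-numbered libraries were not taken as pairs. An exact test within 4 pairs could not reach a p under 0.05, so the results that passed depend on this choice. The cDC2 list (10 genes sorted apart) was higher in CD11c-positive cells, at 996 to 1406 against 249.6 to 305 CPM (adjusted p = 0.0444), and reached 3937 to 4903 CPM in MI cDC2, so genes that the cDC2 sort also carries moved with the dendritic cell results above and their part in them was not tested. The cDC1 list was at 745 to 868 against 639 to 843 CPM (adjusted p = 0.267), led by Irf8 in both gates. The NK and innate lymphoid list was higher (105 to 135 against 19.2 to 29.1 CPM), mostly through Il7r, with Gzmb, Prf1 and Eomes at 0 in the CD11c-positive libraries. Gzmb and Prf1 were at 0 in the CD11c-negative libraries too. Of the 10 members tested 3 were called higher (30%, beside 6.65% of all genes) and none lower. T cell markers were at 16.8 to 28.1 against 16.5 to 25.3 CPM, mostly from Cd4, with Cd3e, Cd3d, Cd3g and Themis at 0 in CD11c-positive cells. Platelet markers were lower (28.9 to 50.5 against 159 to 289.9 CPM) through Pf4, which is also a resident macrophage gene. Cardiomyocyte markers ran from 13.9 to 37.1 against 56.1 to 109 CPM and mural markers from 20.7 to 33.4 against 37.3 to 63.7 CPM, lower in CD11c-positive cells at the smallest p. At the same p, summed plasmacytoid dendritic markers, at 134 to 166 against 179 to 221 CPM, were lower through Tcf4 (means 74.9 against 120 CPM). The median log2 fold change of the 7 plasmacytoid members tested was 0.15, so the lower sum was that of Tcf4 and not of the list. Neutrophil markers were also lower at this p, from 116 to 128 against 147 to 191 CPM, nearly all Csf3r. Summed fibroblast markers were higher, at 869 to 973 against 589.8 to 720.2 CPM, nearly all from Gsn (means 900 against 589 CPM), with Pdgfra at 0 in CD11c-positive cells. The median log2 fold change of the 11 fibroblast members tested was -1.88, so the higher sum was that of Gsn and not of the list. Endothelial markers, led by Kdr, were at 70.6 to 102 against 46.9 to 80.4 CPM (adjusted p = 0.0727). B cell markers were at 28.9 to 39.9 against 38.7 to 75.4 CPM, with Pax5 and Blk at 0 in both gates (adjusted p = 0.0727).

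**Figure D5:**
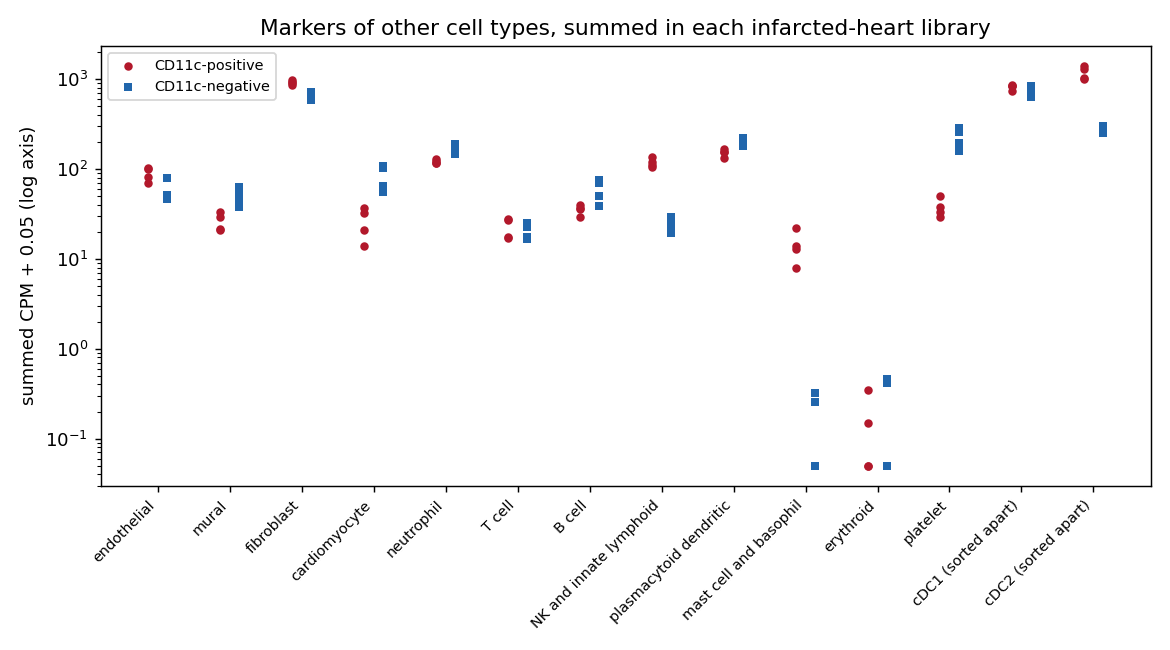
Summed level of marker genes of 14 other cell types in each of the 8 libraries from infarcted hearts (CPM plus 0.05, log axis; circles CD11c-positive, squares CD11c-negative). The cDC2, NK and innate lymphoid, and mast cell lists (the last through Kit) lie higher in CD11c-positive libraries, and the platelet and cardiomyocyte lists lie lower.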

How the data were processed

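RNA from 4 sorted populations of infarcted and steady-state Balb/c hearts was sequenced in 31 libraries (SMART-Seq v4 from 4 ng RNA, 75-nt reads, per the labels' protocols). The authors deposited 1 table of raw read counts per gene for each library. Reads had been aligned to mm10; TopHat2 2.1.0, SAMtools 0.1.18, Trimmomatic 0.35 and FastQC 0.11.4 are listed, per the submitters' processing notes. How reads were counted, with which annotation and with or without strand, is not stated, so overlapping, antisense and near-identical genes are uncertain. Rows of reads outside genes (6.85 to 10.9% without a feature in the 8 libraries) stayed out of library sizes and tests.

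Counts were tested with edgeR 4.0.16 (R 4.3.3): 1 mean for each of 8 groups over all 31 libraries, TMM factors, filterByExpr by group with a minimum count of 10 (13039 of 24421 genes kept), robust quasi-likelihood F test without replicate block, and Benjamini-Hochberg adjustment over all genes tested, with a threshold of 0.05. Contrasts were CD11c-positive minus CD11c-negative cells after infarction, the same at steady state, and their difference. DESeq2 1.42.0, other factors, no filter, fewer libraries, a replicate block and leave-outs were alternatives. Against 0 reads a fold was computed against 3 reads over the group, and against 1 to 3 reads an exact 95% interval is given; both cover counting error only. The deepest of the 8 libraries, CD11c-negative replicate 4, detected the fewest genes, 11818 against 12801 to 13208 in the others. Depth alone therefore does not rank these libraries by precision. Replicates of a group differed by more than sampling noise, so none was counted as a duplicate. The model was also run on counts simulated from its own fitted spread, without pairing. That run does not test whether these libraries meet the model, and its outcome is not reported here.

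Named genes were, in each direction, the 15 largest changes among called genes whose higher group averaged 10 CPM or more and whose libraries did not overlap, 6 in each direction for the difference between conditions, for each list up to 4 called members, taken by adjusted p, and fixed identity genes; some were left out of the text, and other members named were chosen after their values were seen. The count tables held 673 of the 676 symbols in the lists, 3 of these under an older or newer symbol. The members, lists and rules were chosen with earlier results of these data known. Promoter sequences came from RefSeq (GRCm38.p6) and gene positions from GENCODE M21 (GRCm38). Motifs were searched on both strands.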

Additional observations from a re-analysis of the deposited data

Results flagged for a closer look

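Within the 4 infarct libraries of a group, a gap between an end library and its neighbour that exceeded Dixon's 95% limit as a share of the range was found in 16 of 334 gene and group pairs (4.79%); chance gives about 1 in 20. In CD11c-negative replicate 2, Acta2 was at 21.4 CPM against 2.27 to 2.85 in the other 3 libraries, Ldha at 859 CPM, Mertk at 66.9 CPM, S100a4 at 38.9 CPM and the summed endothelial markers at 80.4 CPM, each the highest of its group. In CD11c-negative replicate 1, Ccl7 was the lowest at 87.9 CPM against 154 to 157, and the near-absent genes Ddr1 (0.367 CPM) and H2-Eb2 (0.276 CPM) had reads in that library alone of their group. In CD11c-negative replicate 3, Clec9a was at 1.65 CPM, Tlr11 at 2.47 CPM and Tnip3 at 28.3 CPM, the highest of the group. CD11c-negative replicate 4, which stood apart on the second principal component, had the highest C1qa (4718 CPM) and the lowest Tmem123 (282 CPM). Of the CD11c-positive libraries, replicate 3 had the lowest Alox5 (32.2 CPM) and the highest Lgmn (1339 CPM), and replicate 1 had the lowest Pdcd1lg2 (4.18 CPM). Adam8 was the highest of its group in CD11c-negative replicate 2, at 148 CPM against 69.7 to 70.7 CPM.

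The CD11c difference itself differed between infarcted and steady-state hearts, by the test of the 2 contrasts in the edgeR model, for these named genes. The infarct difference was the more negative by log2 values of -5.701 for Acta2, -4.91 for Myl9, -4.18 for Tagln, -3.39 for Kcnn4, -3.25 for Vegfa, -3.09 for Adam8, -2.46 for Slc15a2, -1.96 for Itgax, -1.57 for Ndrg1 and -1.46 for Ccr2. It was the more positive by 6.35 for Adamdec1, 2.51 for Timd4, 1.8997 for St3gal5, 1.504 for Chn2 and 0.98 for Tgfbi. Adjusted p ran from 9.13e-06 for Kcnn4 to 0.0496 for Acta2. The fitted values of Adamdec1 depend on 0 reads in the infarct CD11c-negative libraries and are no bound.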

How the results depend on the processing

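The counts of called genes kept within 1.5 times under other scaling, no filter, DESeq2 and the replicate block over all libraries (747 to 1075 higher, 484 to 735 lower). Fitting the 8 infarct libraries alone gave 991 lower genes, and with the replicate block added 1501 higher and 1285 lower; the share of higher genes among those called was 52.8% and 53.9% there, against 61.4%. Leaving out 1 infarct library gave 595 to 848 higher and 377 to 489 lower genes. The genes whose CD11c difference differed between infarct and steady state numbered 118 by DESeq2, 57 with the replicate block, 49 in a fit of the 16 CD11c libraries alone (18 of them among the 38), 23 and 22 with the steady-state libraries numbered 1 and 4 or 2 and 3 alone, and 21 to 55 with 1 library left out; the cause was not tested. The steady-state leave-outs and splits were chosen after seeing the data. Reads without a feature made up 11.6 to 16.9% in steady-state CD11c libraries 1 and 4 and 7.22 to 9.26% in 2 and 3. They made up 6.85 to 10.9% in the infarct CD11c libraries. The part of this divide in the differences between the conditions was not tested. Replicate numbers were not taken as pairs in the main fit or the permutation tests, because the labels do not say that they mark shared animals. Deviations of same-numbered libraries correlated at 0.0516 to 0.104, over 0.1 in 1 of 4 pairs. Those of differently numbered libraries correlated lower, at -0.048 to 0.0207, and each library correlated best with its own number. Whether same-numbered libraries shared animals was not tested. The replicate block moved the calls to 1075 higher and 669 lower. Of 2859 alternative values for named genes none reversed, 135 passed no longer and 11 passed anew. Without a filter on low counts Ccl4, Ccr2, Mertk and Nfil3 were not called (adjusted p = 0.0594, 0.0515, 0.0736 and 0.0714). Genes near 0 reads have fold changes set by few reads.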

Other observations

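Further genes of the repair and hypoxia lists differed between the conditions in their CD11c difference; they were chosen after their values were seen. Adam8, a sheddase of leukocytes, was at 169, 261, 202 and 239 CPM in CD11c-positive against 70.5, 148, 70.7 and 69.7 CPM in CD11c-negative cells after infarction, and at 104, 65.2, 232 and 162 against 2.57, 4.12, 10.5 and 10.1 CPM at steady state (adjusted p of the difference 0.00375, edgeR's quasi-likelihood test; 4.03e-06 to 0.0559 over its alternatives, not passed in a fit of the 16 CD11c libraries alone). Ndrg1, a hypoxia-responsive gene, was at 104 ± 5.15 against 87.7 ± 9.46 CPM and 40.9 ± 11.8 against 11.5 ± 3.13 CPM in turn (SD, n = 4 each; adjusted p = 0.00704). In both genes the mean of CD11c-negative cells was higher after infarction than at steady state.

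Other letters searched in RefSeq promoters gave these shares. The AP-1 motif TGANTCA was in 10.4% of the promoters of higher genes, 10.6% of those of lower genes and 6.29% of those of all tested genes. The kB motif GGANTTTCC was in 2.64%, 2.95% and 1.70% in the same order, the PU.1-type ETS motif GAGGAAGT in 5.12%, 6.39% and 4.01%, and the Maf motif TGCTGAC in 4.19%, 5.16% and 4.59%. These are descriptions without a test.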
